A study of Mus musculus with 24 samples.

Results

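The sites described here are the places in the genome where histone H3 acetylated at lysine 27 (H3K27ac) peaked in mouse wound-healing fibroblasts, with and without Prrx1, and in none of the other fibroblasts of the study. They were chosen by the peak lists themselves. The summits of all 7 H3K27ac lists were widened by 250 bp on each side and merged, and a site was kept when it held a summit of both wound-healing lists and of none of the 5 other lists. This gave 659 Wound-confined sites of 100984 merged sites. Another 21181 sites held summits of both wound-healing lists and of at least 1 other list, and are called shared Wound sites. Confinement to the wound-healing lists is therefore the rule and not a result.

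The study asked what the homeobox factor Prrx1 does in 3 kinds of cultured mouse fibroblasts, and mapped H3K27ac, H3K4me3 and Prrx1 in them by ChIP-seq. Wound-healing fibroblasts came from dorsal skin wounds of C57BL/6 mice at day 10, and MEF from C57BL/6 embryos between E10 and E13. MMTV-CAF came from mammary tumours of MMTV-PyMT mice of the FVB/NJ strain, so that this group differed from the others in strain as well as in tissue. All cells had been immortalised with HPV E6/E7, which the controls carry too. SG cells carried a CRISPR/Cas9 deletion of Prrx1 made with a guide RNA (sgPrrx1), WT cells a control guide (sgNS), and a further MEF group labelled KI was read as MEF of Prrx1 mutant mice (129S-Prrx1tm1Jfm). The authors describe these mutant mice as backcrossed to C57BL/6. Each group was 1 library. No comparison below has a replicate, no p-value was computed, and the intervals given cover counting error over sites only and say nothing of the spread between cultures. The 17 peak lists give no read totals, so the depth behind each list is unknown. The H3K27ac lists held 29325 to 61603 summits, with 33465 in WT Wound and 43058 in SG Wound, and a summit missing from a list can be one that fell under the authors' cutoff.

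H3K27ac marks active enhancers and promoters, and H3K4me3 marks the start sites of genes that are transcribed or poised. Fibroblasts of a healing skin wound lay down matrix, contract the wound through smooth muscle actin and signal to vessels and leukocytes, and fibroblasts keep a positional code of homeobox genes from the body site they came from. Prrx1 is a paired-type homeodomain factor of limb and craniofacial mesenchyme, and homeodomains of this type bind DNA around the core TAAT.

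The fibroblast label was checked at H3K4me3 over the start sites of 14 fibroblast genes. WT Wound carried it at 11 and SG Wound at 9, among them Col1a1, Col1a2, Pdgfra and Twist1 in both, while Dcn, Fap and Lum carried none in either. Krt5, Krt14, Krt15 and Trp63, which define basal keratinocytes, and Ptprc, the pan-leukocyte gene, carried no H3K4me3 in any of the 7 lists. Of 15 keratinocyte genes, 6 carried it in both wound-healing lists, and for Epcam, Esrp1 and Itgb4 it was in no other list. Of 8 skeletal muscle genes, Msc and Pax3 carried it in both wound-healing lists and in no other, while Myod1, Myf5, Myog and Pax7 carried none in any list. A Wound-confined site was nearest to 0 of the 15 keratinocyte, 9 leukocyte and 8 skeletal muscle genes, which for lists this short is near the 2.19% of all protein-coding genes. The part of other cells in the results below was not tested.

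The windows of 4 sites are shown first, since much of the account turns on the genes beside them. Each line gives the plus strand of mm9, 100 bp to either side of the WT Wound summit. Capitals mark any of 13 transcription factor words searched on both strands, which are spelled out further on.
Kdr, 28.8 kb upstream, chr5:76403097-76403297: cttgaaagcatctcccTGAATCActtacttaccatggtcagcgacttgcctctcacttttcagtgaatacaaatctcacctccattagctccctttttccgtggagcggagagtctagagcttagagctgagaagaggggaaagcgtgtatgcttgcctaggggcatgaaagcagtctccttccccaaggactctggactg
Kdr, 29.8 kb upstream, chr5:76404194-76404394: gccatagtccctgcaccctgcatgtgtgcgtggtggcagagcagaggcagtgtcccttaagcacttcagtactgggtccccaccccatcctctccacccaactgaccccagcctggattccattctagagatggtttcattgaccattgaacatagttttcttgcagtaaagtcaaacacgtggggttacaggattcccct
Greb1 intron, chr12:16766977-16767177: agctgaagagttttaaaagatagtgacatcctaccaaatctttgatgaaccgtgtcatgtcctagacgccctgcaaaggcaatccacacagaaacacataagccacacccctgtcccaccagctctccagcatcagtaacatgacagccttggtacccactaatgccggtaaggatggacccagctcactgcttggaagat
Esr1 intron, chr10:5628103-5628303: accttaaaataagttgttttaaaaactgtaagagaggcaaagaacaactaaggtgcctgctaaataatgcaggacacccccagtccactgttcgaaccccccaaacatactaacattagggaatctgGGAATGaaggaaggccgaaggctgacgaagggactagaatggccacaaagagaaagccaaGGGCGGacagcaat
The 29.8 kb site of Kdr and the Greb1 site held none of the 13 words, the 28.8 kb site held 1 word and the Esr1 site held 2.

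Kdr, which encodes the VEGF receptor VEGFR2 and is best known from endothelium, had 9 Wound-confined sites nearest to its start site, more than any other gene. The next were Lrrfip1 with 5, and Ssr3 and Etv6 with 4 each. The gene (ENSMUSG00000062960.6, mm9 chr5:76328852-76374483) is transcribed from the minus strand. Within 100 kb, Kdr was the nearest gene to 14 H3K27ac sites in WT Wound and 18 in SG Wound. The same count was 2 in WT MEF, 3 in KI MEF, 2 in SG MEF, 2 in WT MMTV-CAF and 2 in SG MMTV-CAF. These counts come from the lists that chose the sites and are a description. Of the 582 Wound-confined sites that had a start site within 100 kb, 420 were the only one of their gene.

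The 9 sites at Kdr lay in 4 groups. One site covered the start site itself, at chr5:76374082-76375217, with a peak strength of 41.6 in WT Wound and 51.6 in SG Wound. Peak strength is the −log10 of the peak caller's p-value, which grows with depth as well as with enrichment, so values of WT and SG Wound stand side by side and their sizes are not compared between the lists. Another 2 lay 28.8 and 29.8 kb upstream, with strengths of 23.5 and 35.8 in WT and 77.2 and 68.6 in SG. One lay 9.65 kb upstream, with 16.3 in WT and 38.7 in SG. The 2 sites in introns about 40.1 and 38.9 kb into the gene had 9.80 and 6.82 in WT and 22.8 and 41.4 in SG. The remaining 3 sites had values between 7.79 and 9.97 in WT Wound and between 8.77 and 12.1 in SG Wound.

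Kdr was not bare in the other cells. A pair of summits 11.5 and 12.5 kb upstream was present in all 7 lists, with strengths of 23.9 and 28.7 in WT Wound, 14.5 and 7.10 in WT MEF and 15.7 and 14.0 in WT MMTV-CAF. KI MEF had a further summit 52.0 kb upstream (18.8). At the start site and within the gene, only the wound-healing lists had summits. The H3K4me3 lists, which the rule did not use, differed at the same gene. The region over the start site was 5528 bp wide in WT Wound and 6173 bp in SG Wound, with fold enrichments over input of 6.59 and 8.19. It was 907 bp in WT MEF, 460 bp in KI MEF, 491 bp in SG MEF and 1161 bp in WT MMTV-CAF, and no region was called in SG MMTV-CAF. Both wound-healing widths were thus above every other width. Of the next genes by number of sites, Etv6 kept this order and Lrrfip1 and Ssr3 did not. Lrrfip1 had 4996 bp in WT Wound against 6323 bp in WT MMTV-CAF, and Ssr3 3817 bp against 4071 bp.

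**Figure D1:**
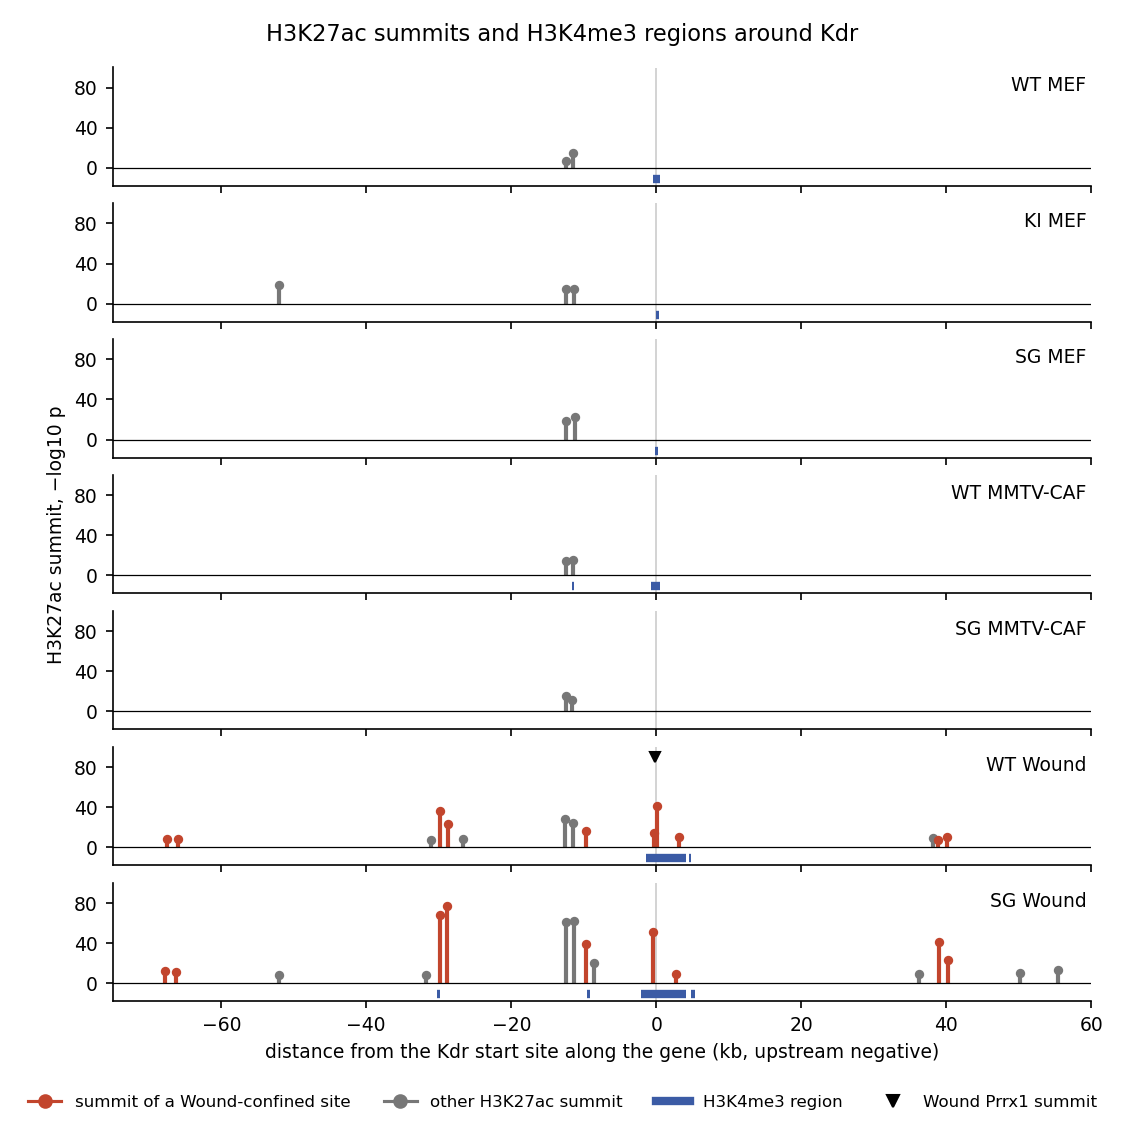
H3K27ac summits around Kdr in the 7 lists, as −log10 p (vertical) against distance from the start site in kb (horizontal, upstream negative), with H3K4me3 regions as bars under the axis and the Wound Prrx1 summit as a triangle. The pair 11.5 and 12.5 kb upstream stands in every list, while the 9 Wound-confined sites and the wide H3K4me3 region at the start site stand in both wound-healing lists.

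Since Kdr is an endothelial marker, the other endothelial genes were read beside it. Of 8 genes of that list, Kdr and Emcn had a Wound-confined site nearest to them. Emcn had 1 such site, and no H3K4me3 in any list. Pecam1, Cdh5, Tek, Tie1 and Sox17 carried no H3K4me3 in any of the 7 lists, and Erg carried it in SG MMTV-CAF and in both wound-healing lists.

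In all, 490 protein-coding genes had a Wound-confined site nearest to them within 100 kb, which is 2.19% of 22372 genes. The nearest gene is a naming convention and was not shown to be the gene that a site acts on.

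Greb1 and Esr1 were among the 20 genes with the most Wound-confined sites, and Pgr was added to them after its values had been seen. Greb1, an oestrogen-responsive gene, had 3 Wound-confined sites. It was the nearest gene to 8 and 15 H3K27ac sites in WT and SG Wound against 0 in each MEF list, 3 in WT MMTV-CAF and 1 in SG MMTV-CAF. A summit 10.2 to 10.6 kb upstream of Greb1, which is nearer to another gene, was present in all 7 lists, with 51.6 in WT Wound and 54.4 in WT MEF. The H3K4me3 region at the Greb1 start site was 2700 bp wide in WT Wound and 4277 bp in SG Wound, and none was called in the 5 other lists. Esr1, the oestrogen receptor alpha, had 3 Wound-confined sites in its introns, with 19.2, 8.91 and 8.35 in WT and 31.6, 67.0 and 9.11 in SG. It was the nearest gene to 16 and 11 H3K27ac sites in WT and SG Wound, 4 of them shared Wound sites. The counts were 5 to 7 in the MEF lists, 11 in WT MMTV-CAF and 5 in SG MMTV-CAF. Esr1 H3K4me3 was 4205 and 9637 bp wide in the wound-healing lists and 931 to 2547 bp in the others. Pgr, the progesterone receptor, had 2 Wound-confined sites, 1 of them at its promoter with strengths of 12.6 and 35.2, and no MEF or MMTV-CAF site. H3K4me3 at Pgr was 4022 and 5792 bp wide in WT and SG Wound, 323 bp in WT MMTV-CAF and absent from the other 4 lists.

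Among 47 mesenchymal homeobox and regional genes, 5 had a Wound-confined site: Msx2 and Pitx1 with 2 each, and Meis2, Irx5 and Alx4 with 1 each. Msx2, a BMP-responsive factor of skin and skull, had no site in any MEF or MMTV-CAF list. Its promoter site had strengths of 18.2 and 19.1 in WT and SG Wound. Alx4, a craniofacial and limb factor, likewise had sites in the wound-healing lists only, and its promoter site had 10.8 and 15.1. Msx2 H3K4me3 was 2435 and 3234 bp wide in the wound-healing lists and at most 1766 bp elsewhere, and Alx4 H3K4me3 was 2129 and 6286 bp against 1399 bp in SG MMTV-CAF and none in the other 4. Pitx1, a hindlimb factor, Meis2 and Irx5 did not keep to this order. Pitx1 H3K4me3 was 1378 and 6046 bp wide in WT and SG Wound but 4003 and 3958 bp in WT and SG MEF. Meis2 H3K4me3 was 12893 and 23081 bp in WT and SG Wound against 16496 and 21387 bp in WT and SG MEF. Irx5 H3K4me3 was 6656 and 6808 bp in WT and SG Wound against 7534 and 7568 bp in WT and SG MMTV-CAF. Hoxc4, a trunk Hox gene and 1 of the 20 genes with the most sites, had a Wound-confined site 26.6 kb from its start site with 40.4 in WT and 49.1 in SG. It lay 648 bp from an SG MMTV-CAF H3K27ac summit, H3K4me3 regions of WT and SG MMTV-CAF (3398 and 3981 bp wide) overlapped it, and MMTV-CAF had a Prrx1 summit there.

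H3K4me3 at a start site in both wound-healing lists and no other list was found at 8 of the 490 genes, 1.63% (95% Wilson interval 0.830 to 3.19). The same held for 1.21% of all protein-coding genes, a share inside that interval. The 8 were Greb1, Tagap, Slc16a12, Wscd2, Rxfp2, Glp1r, A530095I07Rik and Kirrel3. Rxfp2 and Glp1r are receptors for relaxin family peptides and for glucagon-like peptide 1, and Slc16a12 is a creatine transporter. The Rxfp2 region was 2352 bp in WT Wound and 4693 bp in SG Wound, and that of Tagap, a GTPase-activating protein of T cells, 2575 and 3995 bp. Among the 70 genes with at least 2 Wound-confined sites the count was 4, or 5.71% (2.24 to 13.8). For genes nearest to a shared Wound site and to no Wound-confined site it was 27 of 10415, or 0.259%. Shared Wound sites hold a MEF or MMTV-CAF summit by their rule, so a low share there is built in and is no contrast to the others.

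**Figure D2:**
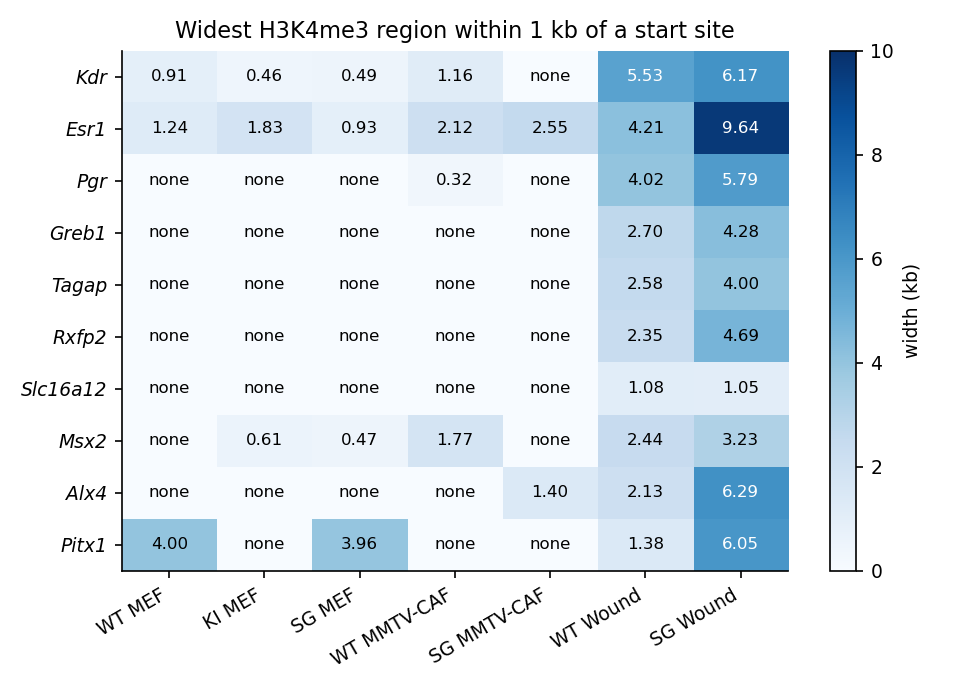
Width in kb of the widest H3K4me3 region within 1 kb of a start site (colour and number, "none" where no region was called) for 10 genes with Wound-confined sites (rows) in the 7 lists (columns). Kdr, Esr1, Pgr, Msx2 and Alx4 were widest in the 2 wound-healing lists, Greb1, Tagap, Rxfp2 and Slc16a12 were marked there alone, and Pitx1 was also marked in WT and SG MEF.

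The pathway genes were read from lists, and a listed gene counts here when at least 1 Wound-confined site was nearest to it within 100 kb. Of 28 matrix structure genes 5 had one, namely the fibrillin gene Fbn1, the collagen gene Col1a2, the crosslinking enzyme Loxl2 and the thrombospondins Thbs1 and Thbs2. For each of these 5, the highest count of nearest H3K27ac sites was in an MMTV-CAF list. Col1a2 had 33 and 10 in WT and SG Wound against 37 and 31 in WT and SG MMTV-CAF, and its Wound-confined site lay 599 bp from a KI MEF summit. Of 21 matrix turnover genes 4 had one, and Timp3, an inhibitor of metalloproteinases, had 2 in introns, the stronger at 26.5 in WT and 41.9 in SG. That site lay 644 bp from a WT MMTV-CAF summit. Timp2, Adamts2 and Adam12 were the others, and all 4 likewise had their highest count in an MMTV-CAF list. Of 18 contraction genes, Acta2 and Myl9 had Wound-confined sites. Acta2 was nearest to 3 and 2 H3K27ac sites in WT and SG Wound against 6 and 3 in WT and SG MMTV-CAF. For Myl9 the counts were 4 and 6 against 3 and 1. The Acta2 site lay in an intron 1.48 kb from its start site with 26.5 and 27.4, and 716 bp from a summit of another list. Myl9, a myosin light chain, had 2 sites up to 25.8 kb from its start site and at least 22856 bp from any MEF or MMTV-CAF summit, with 9.97 and 8.72 in WT and 35.4 and 24.1 in SG.

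Of 18 dermal identity genes, Tbx15 and Pdgfra had a Wound-confined site. Of 28 cytokine and growth factor genes, Csf1 and the monocyte chemokine Ccl2 had one, the latter at its promoter with 12.0 and 27.5. Ccl2 was nearest to 6 and 9 H3K27ac sites in WT and SG Wound against 15 and 16 in WT and SG MMTV-CAF. It carried no H3K4me3 in WT Wound. Of 27 TGF-beta and BMP genes, Ltbp1, Tgfb3 and Tgfbr2 had one, and of 20 AP-1 and TEAD genes Amotl2 and Yap1. Between 7.14% (cytokines) and 19.0% (matrix turnover) of a list's genes had a Wound-confined site. Shared Wound sites lay nearest to 48.4% of all protein-coding genes, to 55.3% of the homeobox list and to 19 of the 20 AP-1 and TEAD genes, its lowest and highest shares over the lists, so the shares cannot be set against the 2.19% of all genes without that.

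How far the sites stood from other acetylated chromatin varied widely. The median distance from a Wound-confined site to the nearest MEF or MMTV-CAF summit was 1.25 kb. For 290 of the 659 sites (44.0%) it was at most 1 kb, for 109 (16.5%) between 1 and 2.5 kb, for 123 (18.7%) between 2.5 and 12.5 kb, and for 137 (20.8%) more. A summit displaced within 1 acetylated domain passes the rule as well as a domain of its own does, and the near sites cannot be told apart from it in lists without widths. Just inside the limit were sites at Msl1 and Mid1, each 501 bp from another list's summit, with WT and SG strengths of 6.10 and 12.5, and of 11.8 and 9.82. Just outside it were a site near Ltbp3 at 500 bp, with 6.10 and 15.1, and one near Rnd3 at 490 bp, with 58.1 and 79.4.

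H3K4me3 differed between near and far sites. Over all merged sites it overlapped 43.7% in WT MMTV-CAF, 44.5% in SG MMTV-CAF, 20.6% to 27% in the MEF lists and 26.5% in WT Wound. Within 1 kb of another summit, the sites overlapped H3K4me3 regions of WT MMTV-CAF at 58.3% and of WT MEF at 34.8%, against 37.9% for WT Wound. Beyond 12.5 kb, the overlap was 5.84% for WT MMTV-CAF, 5.84% for SG MMTV-CAF and 7.30% to 13.9% for the 3 MEF lists, against 31.4% for WT Wound and 38.0% for SG Wound. Distance was measured to the H3K27ac summits that the rule also used, so the low MEF and MMTV-CAF shares of the 137 far sites are a description. Tmem56, which has a Wound-confined promoter site 28.3 kb from any other list's summit, nevertheless had H3K4me3 in each list. The region was 898 to 1630 bp wide in all 7 lists.

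**Figure D3:**
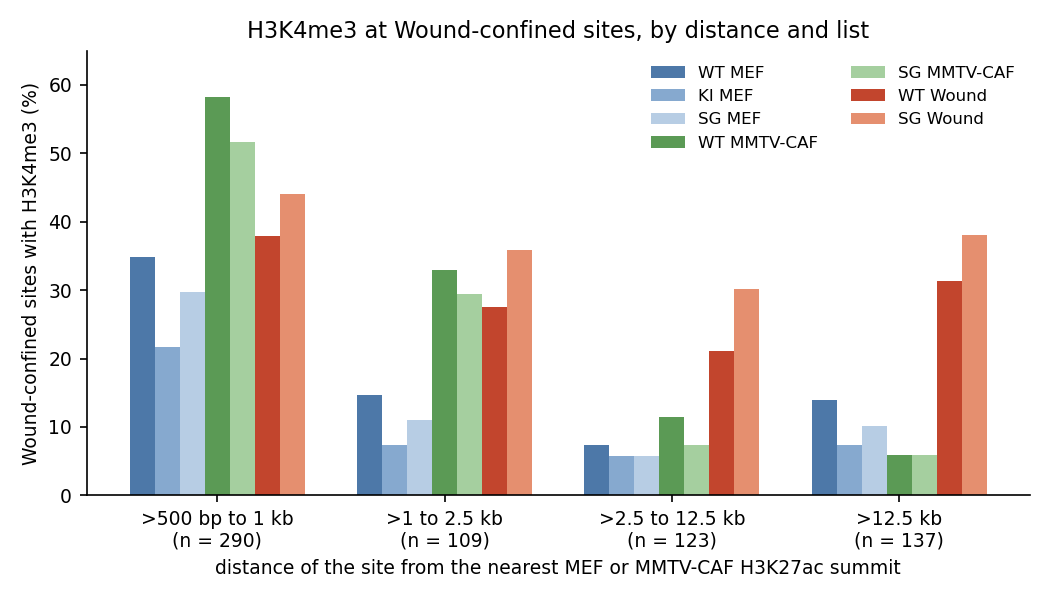
Share of Wound-confined sites (%, vertical) that overlap an H3K4me3 region of each of the 7 lists (colours), by distance of the site from the nearest MEF or MMTV-CAF H3K27ac summit (horizontal, with the number of sites). The MMTV-CAF bars fall from 58.3% and 51.7% in the nearest class to 5.84% in the farthest, while the wound-healing bars stay between 21.1% and 44.1%.

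Over all 659 sites, H3K4me3 overlapped 31.7% in WT Wound (28.3 to 35.4) and 38.8% in SG Wound, where all merged sites gave 26.5% and 30.7%. Shared Wound sites gave 62.8% in WT Wound, which is 31.1 points more (Newcombe 95% interval 27.4 to 34.6). Sites of the WT Wound list alone gave 42.9%, a difference of -11.2 points (-15.4 to -6.94). Those of the SG Wound list alone gave 15.3%, a difference of 16.4 points (12.9 to 20.2). MEF-confined sites gave 11.8%, but they hold no wound-healing summit by their rule. In the WT list of their own cells, MEF-confined sites gave 16.2% and MMTV-CAF-confined sites 41.1%. Within groups of like strength the shares at Wound-confined and shared sites were 24.3% (20.7 to 28.3) and 32.2% (31.0 to 33.3) in the weakest of 3 equal groups of the sites of both wound-healing lists by WT strength, 51.7% and 62.6% in the middle group, and 61.9% (40.9 to 79.2, 21 Wound-confined sites) and 90.0% in the strongest. The gap was smaller away from promoters. Among sites over 1 kb from a start site, the WT Wound share was 23.5% (20.2 to 27.2) at Wound-confined and 26.6% (25.7 to 27.4) at shared sites.

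Promoters were few. A protein-coding start site stood no more than 1 kb from 94 of the 659 sites, 14.3% (11.8 to 17.1), below the 18.7% of all merged sites. Shared Wound sites gave 50.8%, a difference of -36.5 points (-39.1 to -33.6). The gap varied with peak strength. In the weakest of the same 3 groups, which held 489 Wound-confined sites, the promoter shares were 10.6% (8.20 to 13.7) and 21.2% (20.2 to 22.2), in the middle group 23.5% and 48.8%, and in the strongest, with 21 Wound-confined sites, 33.3% (17.2 to 54.6) and 78.8%. Sites confined in the same way to the WT and SG lists of MEF gave 8.21% and those of MMTV-CAF 8.06%, so that the Wound-confined share was 6.05 points (3.27 to 9.15) and 6.21 points (3.62 to 9.18) higher. The share of sites found only in the WT Wound list was 16.1%, and the interval of that difference included 0 (-4.89 to 1.43 points). Sites found only in the SG Wound list gave 7.96%, and the Wound-confined share was 6.31 points higher (3.75 to 9.26). Introns held 50.1% of the Wound-confined sites (41.3% of all merged sites), intergenic sequence 28.1% (36.3%) and exons 7.59% (3.76%, and 8.61% of the sites of the WT Wound list alone). Introns held 50.5% of sites of the WT Wound list alone, 52.4% of the SG Wound list alone, 47.4% of MMTV-CAF-confined and 40.1% of MEF-confined sites. For intergenic sequence the shares were 24.8%, 35.5%, 39.9% and 48.8% in that order. The median distance to a start site was 9.26 kb, against 0.870 kb at shared Wound sites.

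Prrx1 summits were also few. The Wound Prrx1 list had a summit within 500 bp of 20 of the 659 sites, 3.03% (1.97 to 4.64), where it had one at 3.98% of all merged sites. Shared Wound sites gave 1902 of 21181, or 8.98%, and the difference was -5.94 points (-7.08 to -4.29). MEF-confined sites gave 2.33% and MMTV-CAF-confined sites 2.02%, and the intervals of both differences included 0 (-0.605 to 2.41 and -0.138 to 2.66 points). Sites found only in the WT Wound list gave 2.45%, and the interval of the difference included 0 (-0.755 to 2.30 points). Those found only in the SG Wound list gave 1.69%, and the Wound-confined share was 1.35 points higher (0.227 to 2.98). The MMTV-CAF Prrx1 list had a summit at 15 Wound-confined sites (2.28%, against 6.19% of all merged sites) and the MEF list at 4 (0.607%, against 1.13%).

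Wound-confined sites were weaker than shared ones, and the Prrx1 share was higher among stronger sites in both sets. Their median strength was 10.2 in WT Wound and 14.7 in SG Wound, against 19.2 and 31.2 at shared sites. When all sites of both wound-healing lists were divided into 3 equal groups by WT strength, 489 of the 659 fell in the weakest. There the Prrx1 share was 1.64% (0.831 to 3.19) at Wound-confined and 6.36% (5.79 to 6.98) at shared sites. In the middle group it was 6.71% (3.69 to 11.9) and 8.40%, and in the strongest, with 21 Wound-confined sites, 9.52% (2.65 to 28.9) and 11.9%, so that beyond the weakest group the sets were not distinguished.

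**Figure D4:**
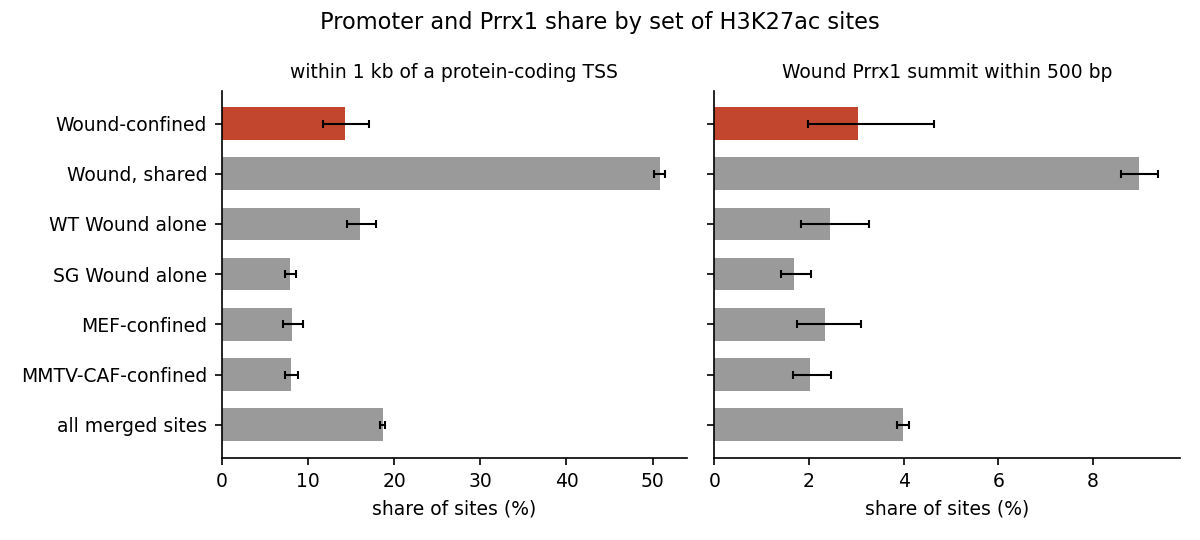
Share of sites (%, horizontal) within 1 kb of a protein-coding start site (left) and with a Wound Prrx1 summit within 500 bp (right) for 7 sets of H3K27ac sites, with 95% Wilson intervals as error bars. The shared Wound sites stand highest in both panels at 50.8% and 8.98%, and the Wound-confined sites are at 14.3% and 3.03%.

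At the 20 sites with a Wound Prrx1 summit, the Prrx1 strength was 10 or more at 3 and below 5 at 7. The median strength was 5.40 for the 18 Prrx1 summits whose nearest H3K27ac site was Wound-confined, 6.28 at shared Wound sites and 6.32 over all 5698 summits of the list. The strongest, 21.3, lay at an intronic site of Wscd2 (chr5:114020423-114021026), 37287 bp from any MEF or MMTV-CAF H3K27ac summit, where MMTV-CAF also had a Prrx1 summit. The next lay in introns of the adenosine receptor gene Adora2b (16.2) and of the dynamin gene Dnm1 (11.5), and Dnm1 was the only one with a Prrx1 summit in all 3 cell types. Kdr had a Wound Prrx1 summit of strength 5.39 over its promoter site, and the sites of the homeobox gene Dlx1 (5.39) and of Myl9 (4.50) had one too. The site near Col1a2, which encodes a chain of type I collagen, had a Prrx1 strength of 6.32 and lay 48.5 kb from its start site. Only 6 of the 20 were over 2.5 kb from another list's H3K27ac summit.

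Of these 20, the 4 with the palindrome TAATTA within 100 bp of the Prrx1 summit are shown, since it joins the TAAT core of homeodomain binding to its reverse complement. The plus strand of mm9 is given for 100 bp to either side of the Prrx1 summit, and capitals mark TAAT and its reverse complement ATTA.
Tmem211, chr5:113636622-113636822: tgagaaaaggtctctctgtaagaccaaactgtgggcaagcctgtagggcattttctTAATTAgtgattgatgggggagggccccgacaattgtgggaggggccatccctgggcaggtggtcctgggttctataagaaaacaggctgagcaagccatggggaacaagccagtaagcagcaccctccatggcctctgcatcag
Lphn2, chr3:148648965-148649165: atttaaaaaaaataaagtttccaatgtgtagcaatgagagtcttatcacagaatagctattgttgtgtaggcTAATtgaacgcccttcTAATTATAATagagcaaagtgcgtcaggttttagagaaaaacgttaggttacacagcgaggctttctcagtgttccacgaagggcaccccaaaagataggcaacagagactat
Epha3, chr16:63862840-63863040: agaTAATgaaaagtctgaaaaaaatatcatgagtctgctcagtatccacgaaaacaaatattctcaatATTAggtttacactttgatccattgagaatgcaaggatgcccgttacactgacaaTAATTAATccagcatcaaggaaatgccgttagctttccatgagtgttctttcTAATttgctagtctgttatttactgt
AB041803, chr6:31098899-31099099: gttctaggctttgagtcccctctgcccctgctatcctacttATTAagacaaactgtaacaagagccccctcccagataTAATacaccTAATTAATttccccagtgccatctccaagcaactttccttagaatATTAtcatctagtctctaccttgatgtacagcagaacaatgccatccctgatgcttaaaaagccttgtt
The palindrome began at an offset of -44 bp from the Prrx1 summit at Tmem211, -12 bp at Lphn2, 23 bp at Epha3 and -13 bp at AB041803. The Prrx1 strengths there were 7.19, 6.32, 4.58 and 4.50 in that order. The windows of Lphn2 and Epha3 lay wholly outside the Wound-confined site, with Prrx1 summits 463 and 388 bp from its nearest H3K27ac summit. At Wscd2, Adora2b and Dnm1, which had the strongest Prrx1 summits of the 20, the palindrome was absent. Among the 18 Prrx1 summits whose nearest H3K27ac site was Wound-confined, 22.2% (9.0 to 45.2) had it. The share was 18.3% of 1639 Prrx1 summits at shared Wound sites and 67.6% of 2362 Prrx1 summits with no H3K27ac summit of any list within 500 bp. Prrx1 summits at Wound-confined and shared sites were not distinguished by this word, and both were far below the summits outside H3K27ac.

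The 13 words were counted on both strands within 100 bp of the WT Wound summit, or of the strongest summit in the other sets. They were TGANTCA (AP-1, with N for any base), TAATTA (homeodomain), GGAATG (TEAD), TGTGGT (RUNX), CAGCTG (bHLH), CATCTG (bHLH), TTGCGCAA (C/EBP), TGGC followed after 5 bases by GCCA (NFI), GTCTAGAC (SMAD), CCGGAA (ETS), AGATAA (for GATA factors), GGGCGG (SP and KLF) and CATG followed after 6 bases by CATG (p53 family). TGTGGT was found at 16.8% of Wound-confined sites (14.2 to 19.9), against 10.7% of shared Wound sites and 14.3% of all merged sites. The difference from shared sites was 6.19 points (3.49 to 9.26), and among sites away from promoters 3.38 points (0.375 to 6.81). From MEF-confined and MMTV-CAF-confined sites, at 14.4% and 15.7%, it was not distinguished. GGAATG and CATCTG were also more frequent than at shared sites (9.32% and 11.8%), by 3.27 points (0.918 to 6.05) and 3.22 points (0.652 to 6.18), and the intervals of their differences from MEF-confined and MMTV-CAF-confined sites included 0. Away from promoters, GGAATG stood at 13.1% (10.6 to 16.1) of Wound-confined and 11.5% (10.9 to 12.1) of shared sites, and CATCTG was not split in this way. GGGCGG and CCGGAA, both common at promoters, were found at 6.83% and 2.58% of Wound-confined sites against 21.4% and 7.5% of shared ones. TGANTCA stood at 4.25% (all merged sites 4.71%) and TAATTA at 1.97% (2.69%), and the interval of the difference from shared sites included 0 for both. The median GC content of the windows was 51.2% at Wound-confined and 56.7% at shared sites. A match is a run of letters and not a bound site.

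Both WT and SG cells carried these sites by the rule, so their presence says nothing of Prrx1 loss, and WT and SG were compared by the percentile of a site within its own list. The median percentile of the Wound-confined sites was 25.6 in WT Wound and 44.7 in SG Wound, and 479 of 659 (72.7%) stood higher in SG. At shared Wound sites the medians were 61.9 and 73.4, with 70.4% higher in SG. The SG list is the longer one, and the 6159 sites found only in it had a median percentile of 23.0. The 1835 sites found only in the WT list had 23.5 there. Weak sites of a list raise the percentiles of its other sites, and by how much in each list was not tested. At the 20 sites with a Wound Prrx1 summit the medians were 50.8 and 52.8, and 13 stood higher in SG. The site at Esr1 shown above stood at the 14.5 percentile in WT and the 94.4 in SG, and the Zbtb20 site with a Prrx1 summit at the 68.4 and the 12.8. With 1 library each, WT and SG cannot be told apart from differences between cultures or depths.

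**Figure D5:**
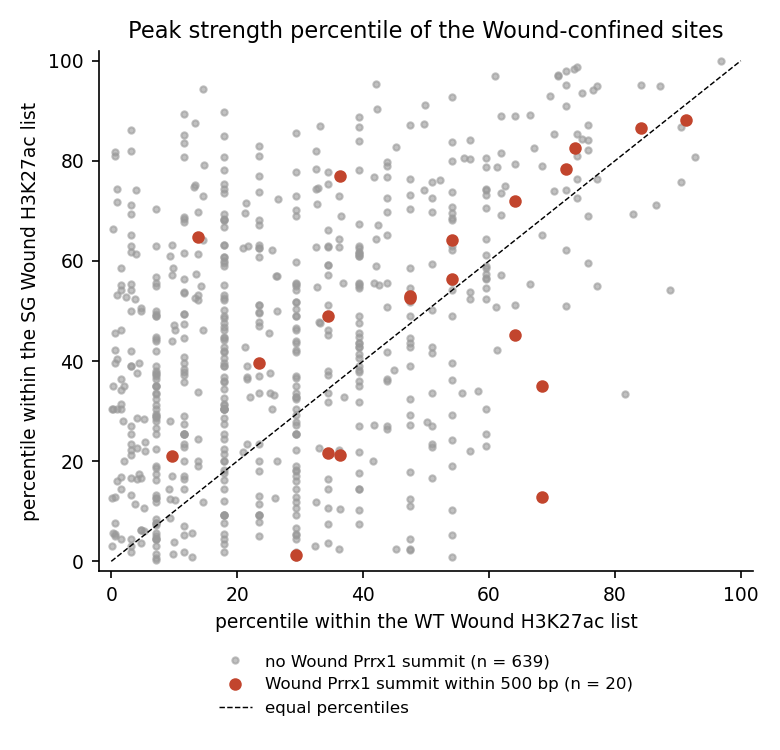
Percentile of peak strength within the WT Wound H3K27ac list (horizontal) and within the SG Wound list (vertical) for the 659 Wound-confined sites, with the 20 sites near a Wound Prrx1 summit in red and the line of equal percentiles dashed. Of all points 479 lie above the line, and 13 of the 20 red ones do.

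The sites were spread over all autosomes and the X chromosome. Chromosome X held 1.06% of them and 2.10% of the shared Wound sites, chromosome 13 held 1.82% and 3.28%, and chromosome 16 held 4.70% and 3.43%. When sites within 12.5 kb of each other were joined, 524 sites stood alone, and there were 56 pairs, 5 groups of 3 sites and 2 groups of 4, the last at Ssr3 and Lrrfip1.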

How the data were processed

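The authors trimmed reads, aligned them to mm9 and called peaks per library against input with MACS2 (Trimmomatic, Bowtie and deepTools are also named in the submitters' processing notes). For H3K27ac and Prrx1 the authors deposited summit positions, each with the −log10 of its p-value. For H3K4me3 they deposited regions called in broad mode, with a peak score, the fold over input (a ratio) and −log10 values of p and q. The weakest Prrx1 summits lie below the cutoff seen in H3K27ac, and whether duplicate ChIPs were pooled is not stated. Reads and inputs were not used here, and read depth per list is unknown.

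Sites were merged, compared and annotated with Python 3.11.15, numpy 2.4.6 and pandas 2.3.3 on the NCBIM37 (mm9) genome and GENCODE vM1, printed 1-based. Promoter and gene distances used the strongest summit of a site, H3K4me3 an overlap of at least 1 bp, and motif windows the WT Wound summit for Wound-confined sites and the strongest summit for the others. Shares carry Wilson 95% intervals and differences Newcombe intervals. The site rule and intervals were tested on simulated data with planted sites. The named sites were the 10 with the best worst rank, the 10 with the strongest Wound Prrx1 summit and promoters marked by H3K4me3 in the wound-healing lists alone, and the named genes were the 20 with the most sites and listed genes with a site. The members, lists and named items were chosen with earlier results of these data known. Ajuba and Spi1 were not matched to the annotation.
The alternatives named below as added were chosen after seeing the data. One of the named sites is not reported here.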

Additional observations from a re-analysis of the deposited data

Results flagged for a closer look

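The share of Wound-confined sites that overlap an H3K4me3 region moved in opposite directions between WT and SG cells of the 3 cell types. It was higher in SG by 7.13 points in wound-healing fibroblasts (31.7% to 38.8%), and SG minus WT was -3.95 points in MEF (22.0% to 18.1%) and -4.25 points in MMTV-CAF (34.4% to 30.2%). Over all merged sites the same differences were 4.20 points in wound-healing fibroblasts, -2.26 in MEF and 0.789 in MMTV-CAF. Each value compares 1 library with 1 library, and the difference between cell types was not tested.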

How the results depend on the processing

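Each list is 1 library of unknown depth, and absence from a list is absence above a cutoff. The number of Wound-confined sites changed with the rule. It was 363 with summits widened by 500 bp, 260 when every MEF and MMTV-CAF summit had to be over 2.5 kb away, 281 with Wound peak strengths of at least 10, and 1534 when only WT lists of MEF and MMTV-CAF counted against a site. Under the same changes the WT Wound H3K4me3 share was 27.5% (500 bp), 26.5% (2.5 kb) and 42.0% (strength), and it was 35.5% without the KI MEF list, 22.3% for H3K4me3 regions of strength 10 or more and 23.5% at sites away from promoters, an alternative added later. The promoter share was 20.3% (strength), 18.3% (WT lists only), 25.5% with promoters of 2.5 kb and 20.3% with start sites of all genes. The Prrx1 share was 1.82% within 250 bp, 5.01% within 1 kb and 1.97% for Prrx1 strengths of at least 5. Its difference from shared sites stayed below 0 in each alternative run, at -8.97 points (500 bp widening), -3.76 (Prrx1 within 250 bp) and -4.25 (strongest summit only, added later) where it moved. TGANTCA and TAATTA stood at 1.42% and 1.07% (strength), and at 12.7% and 6.98% in windows of 250 bp, which hold more bases. The cause of the other changes was not tested. No paired analysis was possible because each group is 1 library.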
